A study of Homo sapiens with 4 samples.

Results

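The genes described here code for the kinases, phosphatases, binding proteins and elongation factors that act on or beside the C-terminal domain (CTD) of RPB1, the largest subunit of RNA polymerase II. A fixed list of 38 genes was matched by Ensembl identifier, and all 38 were found among the 51714 identifiers of the count tables. The genes form 10 complexes or functional groups, all called complexes below. RNA came from Raji cells, an Epstein-Barr-virus-positive Burkitt lymphoma B cell line. The cells carried a vector for HA-tagged, α-amanitin-resistant RPB1, either with the wild-type sequence (WT, 2 libraries) or with alanine in place of arginine R1810 (R1810A, 2 libraries), so that this residue cannot be methylated. All 4 libraries come from polyclonal lines selected with G418 and then kept for 10 days in α-amanitin, which blocks the endogenous polymerase, so the controls share the vector and the drug. Ribosomal RNA was removed from total RNA before sequencing. The comparison asks whether the R1810A lines differ in the RNA of the factors that write, erase or read the CTD. It also covers those that carry the polymerase through a gene. Methylation was not measured in these libraries, so loss of the methyl mark cannot be told apart from loss of the arginine.

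The CTD is a long tail of near-repeats of a heptapeptide. The CDK-activating kinase of TFIIH phosphorylates it at serine 5 and serine 7 of the repeat when transcription starts. Positive transcription elongation factor b (P-TEFb) then phosphorylates the CTD together with DSIF and NELF, which releases the paused polymerase, and CDK12 and CDK13 with cyclin K add serine 2 phosphate along the gene body. Phosphatases remove these marks, and proteins with a CTD interaction domain bind them and couple transcription to 3′ end formation. R1810 lies in a degenerate repeat of this tail and is methylated by CARM1.

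Summed gene counts ran from 2081636 to 2991959 per library. The 38 genes together held 8544 and 11117 reads in WT against 8097 and 7901 in R1810A. The 6 B cell markers examined had 420 to 4391 reads in each library. Of 10 T cell, myeloid, epithelial and fibroblast markers, 4 had no reads and 9 stayed under 20 reads in each library, while CSF1R, a myeloid marker, had 324 to 508. POLR2A, the gene of the replaced subunit, stood at a log2 fold change of 0.21 (SE 0.11), but vector and endogenous transcripts are counted together, so this does not check the labels. Counts of replicates differed by more than sampling noise (chi-square per degree of freedom 4.03 in WT and 2.13 in R1810A). Nothing in the labels says whether the replicates were separate cultures, and the p-values therefore rest on a spread between libraries that may be technical.

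No change in the RNA of the CTD machinery was detected between the lines. A filter on low counts kept 35 of the 38 genes. In the edgeR quasi-likelihood test 0 of the 35 passed an adjusted p under 0.05 in either direction, against 0.347% higher and 0.00937% lower among the 10674 genes tested, and DESeq2 and limma-voom also called 0. At an unadjusted p under 0.05 there was 1 higher gene, SUPT6H, and 0 lower, against 4.94% higher and 3.06% lower of all genes. That is 2.86% of the genes tested here, and a count of 1 is too small to set this share apart from the background. Log2 fold changes ran from -0.40 to 0.52 with a median of 0.06, beside a median of 0.00 for all genes tested, and 20 lay above 0 (49.4% of all genes did) and 15 below (50.6%). Scaled by the deposited total reads instead, the median was -0.07, beside -0.13 for all genes.

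Because nothing passed, the precision of the estimates sets what the comparison can say. Standard errors of the log2 fold changes ran from 0.11 to 0.29, with a median of 0.14. For 33 of the 35 genes the 95% interval lay inside a 2-fold change in either direction, which was true of 82.5% of all genes tested. The exceptions were CDK7, whose interval reached 0.487-fold, and CCNK, whose interval reached 1.07 on the log2 scale. For 24 genes the interval lay inside 1.5-fold, against 50.5% of all genes.

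**Figure D1:**
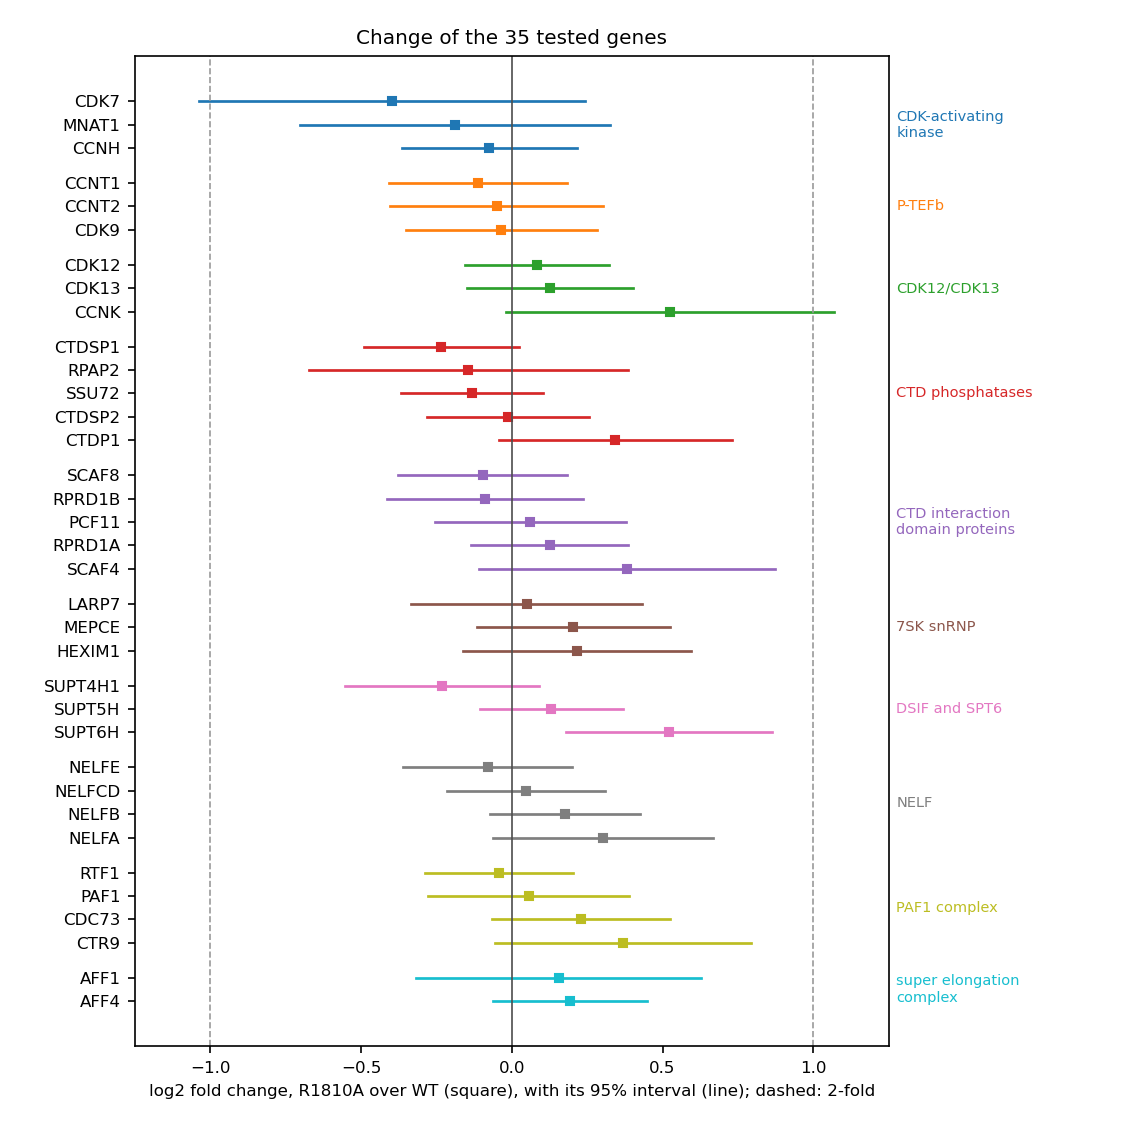
Log2 fold change of R1810A over WT (squares) with its 95% interval (lines) for the 35 tested genes, grouped and coloured by complex, with dashed lines at a 2-fold change. Only the interval of SUPT6H leaves out 0, and only those of CDK7 and CCNK reach past 2-fold.

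Values of both groups stood apart more often than they passed the test. In CPM, the count as parts of a library total scaled by the TMM method, 13 genes (37.1%) had both R1810A values above both WT values, against 19.8% of all genes, and 6 (17.1%) had both below, against 19.5%. Where the fitted level of the higher group also exceeded that of the lower group by at least 25%, 5 higher genes remained (14.3%; SUPT6H, CCNK, SCAF4, CTR9 and CTDP1), against 8.76% of all genes. The same rule left 1 lower gene (2.86%; CDK7), against 6.56%. Under this scaling the higher shares lie above those of all genes and the lower ones below. That difference was not tested, and with 2 libraries a group such separation is common over the whole table. The lean also depends on the scaling. Scaled by the deposited total reads, only SUPT6H, CCNK and CDC73 of the 13 higher genes stay higher. The groups of the others overlap, those of SCAF4, CTR9 and CTDP1 among them. All 6 lower genes, CDK7 among them, stay lower. CCNH, SCAF8, RTF1 and CTDSP2, which overlap in CPM, are then lower in both R1810A libraries. Under that scaling the lower genes outnumber the higher ones. Shares of all genes were not counted under that scaling.

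SUPT6H codes for SPT6, a histone chaperone that binds the elongating polymerase and keeps chromatin in order behind it. It had 92 and 140 reads in WT against 132 and 129 in R1810A, which is 40.3 and 46.6 CPM against 63.3 and 62.1 CPM. Both R1810A libraries were higher, and the gap between the groups was wider than the spread within either. The means were 43.5 ± 4.45 CPM for WT against 62.7 ± 0.877 CPM in R1810A (SD, n = 2). The fitted fold was 1.44 with an interval of 1.13 to 1.82, and the log2 fold change of 0.52 (SE 0.15) did not pass over all genes (edgeR adjusted p = 0.329). Its unadjusted p stayed under 0.05 in all 13 alternative analyses, and its adjusted p stayed above 0.05 in all 13, at 0.269 to 1.00. The start of SUPT6H faces that of SDF2 on the opposite strand, and SDF2 stood at a log2 fold change of -0.06 (SE 0.24).

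SPT6 acts beside DSIF, the pair of SPT4 and SPT5 that clamps onto the polymerase and serves first in pausing and then in elongation. SUPT5H, the gene of SPT5, had 552 and 684 reads in WT against 554 and 516 in R1810A, giving a log2 fold change of 0.13 (SE 0.11). SUPT4H1, the gene of its small partner SPT4, had 191 and 247 against 132 and 162, with a log2 fold change of -0.23 (SE 0.15). In CPM SUPT5H was higher in both R1810A libraries and SUPT4H1 lower in both, neither past the threshold (edgeR adjusted p = 0.783 and 0.715). Scaled by the deposited total reads, the groups of SUPT5H overlap, while SUPT4H1 stays lower. In GENCODE v29, 70.6% of the exon bases of SUPT4H1 overlap another gene on the same strand and 27.8% one on the opposite strand, so its count may include reads of neighbours.

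The initiating kinase had its 3 subunits below 0 on the log2 scale, none past the test. CDK7, the catalytic subunit, had 40 and 38 reads in WT against 24 and 23 in R1810A, or 17.5 and 12.7 CPM against 11.5 and 11.1 CPM. Both R1810A libraries were lower, with most of the spread in WT. The log2 fold change was -0.40 (SE 0.29, edgeR adjusted p = 0.757), the least precise estimate of the 35, from the fewest reads of any tested member, and leaving out WT replicate 1 gave -0.17, WT replicate 2 -0.63. CCNH, its cyclin, stood at -0.07 (SE 0.13), and MNAT1, the assembly factor that joins them, at -0.19 (SE 0.23), both with overlapping groups.

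In P-TEFb no subunit lay further than 0.11 from 0 on the log2 scale. CDK9, its kinase, had 152 and 223 reads in WT against 151 and 136 in R1810A, giving a log2 fold change of -0.03 (SE 0.14). CCNT1, the main cyclin partner of CDK9, had 179 and 261 against 160 and 159 reads, or 82.7 ± 5.98 CPM against 76.6 ± 0.166 CPM (SD, n = 2). Both R1810A libraries lay just below both WT libraries, a log2 fold change of -0.11 (SE 0.13, edgeR adjusted p = 0.858). Leaving out WT replicate 1 gave -0.18, and leaving out WT replicate 2 gave -0.04. CCNT2, the alternative cyclin, stood at -0.05 (SE 0.16) with overlapping groups.

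P-TEFb is held inactive by the 7SK snRNP, in which HEXIM1 inhibits the kinase, LARP7 protects the 3′ end of 7SK RNA and MEPCE caps its 5′ end. MEPCE had 211 and 221 reads in WT against 197 and 199 in R1810A, or 92.5 and 73.6 CPM against 94.5 and 95.7 CPM. The R1810A libraries were close to WT replicate 1 and above WT replicate 2, with a log2 fold change of 0.20 (SE 0.14, edgeR adjusted p = 0.751). Without WT replicate 1 it was 0.37, and without WT replicate 2 it was 0.04. HEXIM1, with no overlap either, stood at 0.22 (SE 0.17) and LARP7 at 0.05 (SE 0.17). The 7SK RNA gene itself had 80 and 107 reads against 79 and 80, with a log2 fold change of 0.11 (SE 0.17). Of the 36-base words in that gene, 83.1% also occur in other genes, so its count is uncertain.

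The kinases of the gene body are CDK12 and CDK13, which share cyclin K. CDK12 had 585 and 699 reads in WT against 537 and 541 in R1810A, giving a log2 fold change of 0.08 (SE 0.11), and CDK13 had 329 and 492 against 377 and 325, with 0.13 (SE 0.13). In CPM both R1810A libraries lay above WT for CDK12, and the groups overlapped for CDK13. Neither passed the test. CCNK, which codes for the cyclin, had 33 and 53 reads in WT against 43 and 54 in R1810A, or 14.5 and 17.6 CPM against 20.6 and 26.0 CPM. Both R1810A libraries were higher, and the nearest libraries of the groups differed by no more than those within either group. The log2 fold change of 0.52 (SE 0.25) matched that of SUPT6H in size but not in precision (edgeR adjusted p = 0.635), and it was 0.35 without R1810A replicate 2. In GENCODE v29, 59.5% of the exon bases of CCNK overlap CCDC85C on the opposite strand. That annotation gives CCNK 8220 exon bases, but the deposited gene length is 2697. The overlap of the counted gene model is therefore not known. CCDC85C had 1 to 5 reads in each library, and the part of shared reads in the CCNK value was not tested.

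Most of the genes matched start in CpG-rich sequence. RefSeq promoter entries (GRCh38.p14) were matched for 34 of them, without CDC73, CTDSPL, ELL2 and SCAF4. The 250 bases before the first listed start held 10 to 40 CpG with a median of 24.5, beside a median of 17 for 15843 protein-coding genes, and 29 of the 34 lay above that median. Most of these windows overlap annotated exons, and some, such as those of CDK9 and SUPT6H, do so over all 250 bases. The GC box core GGGCGG, searched on both strands, was in 28 of 34 (82.4%) against 56.0% of all protein-coding promoters. The TATA box core TATAAA was in 2 of 34 (5.88%) against 9.23%, and the element TCTCGCGA in 2 of 34 (5.88%) against 1.56%. The words CCGGAAG and TGACGTCA, also searched, were in 6 of 34 (17.6%) against 11.8% and in 3 of 34 (8.82%) against 2.32%.

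The windows of CDK12 and RTF1 are printed, with each CpG in capitals, because no annotated exon overlaps them. They do not stand for gene-body kinases or elongation factors in general. CDK12 is read from chr17:39461236-39461485 on the plus strand with 18 CpG, and RTF1 from chr15:41416845-41417094 on the plus strand with 23 CpG.
CDK12: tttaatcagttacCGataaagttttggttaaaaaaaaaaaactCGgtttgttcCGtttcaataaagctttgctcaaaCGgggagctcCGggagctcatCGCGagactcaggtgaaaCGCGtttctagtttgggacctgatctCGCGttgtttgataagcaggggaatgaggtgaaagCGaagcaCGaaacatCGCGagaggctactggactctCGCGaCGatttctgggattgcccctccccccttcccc
RTF1: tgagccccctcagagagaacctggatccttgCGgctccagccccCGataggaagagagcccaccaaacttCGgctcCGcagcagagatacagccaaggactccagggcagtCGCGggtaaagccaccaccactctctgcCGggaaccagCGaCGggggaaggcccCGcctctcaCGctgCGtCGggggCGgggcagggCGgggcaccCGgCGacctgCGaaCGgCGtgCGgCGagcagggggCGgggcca
Both lie under the median of the 34. The CDK12 window is 48.8% GC, holds TCTCGCGA and no GGGCGG, while that of RTF1 is 70.4% GC and holds GGGCGG and no TCTCGCGA. These matches describe the letters only.

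Genes of the DNA damage response are known to depend on CDK12 and cyclin K for full-length transcripts. Reads summed over a gene, used here, do not show whether its transcripts reach full length. BRCA1, 1 of 6 examined, averaged 223 ± 3.50 CPM in WT against 226 ± 1.87 CPM in R1810A (SD, n = 2), with a log2 fold change of 0.02 (SE 0.11). Of the 6, 0 passed an adjusted or an unadjusted p under 0.05. Their log2 fold changes ran from -0.38 (SE 0.20) for FANCD2 to 0.24 (SE 0.12) for ATM, with 3 above 0 and a median of -0.03.

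Among the phosphatases SSU72, which acts on serine 5 phosphate with 3′ end factors, was the most abundant RNA of all 38 genes. It had 896 and 1185 reads in WT against 786 and 709 in R1810A, giving a log2 fold change of -0.13 (SE 0.11). CTDP1, the gene of FCP1 that recycles the polymerase by dephosphorylating serine 2, had 119 and 170 reads in WT against 168 and 120 in R1810A. Replicate 1 of R1810A stood alone at 80.6 CPM, while replicate 2 at 57.7 CPM lay beside the WT libraries at 52.1 and 56.6 CPM. The log2 fold change of CTDP1 was 0.34 (SE 0.18, edgeR adjusted p = 0.654), with 0.08 without R1810A replicate 1 and 0.56 without R1810A replicate 2. RPAP2, the phosphatase that also imports the polymerase, stood at -0.14 (SE 0.24) with overlapping groups.

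The small CTD phosphatases are 3 closely related enzymes, CTDSP1, CTDSP2 and CTDSPL, which also act on the REST repressor of neuronal genes. CTDSP1 had 366 and 451 reads in WT against 285 and 264 in R1810A, or 155 ± 7.24 CPM against 132 ± 6.83 CPM (SD, n = 2). Both R1810A libraries were lower, with a log2 fold change of -0.23 (SE 0.12, edgeR adjusted p = 0.654). CTDSP2 stood at -0.01 (SE 0.12), with all 4 libraries between 103 and 107 CPM. CTDSPL had 0 reads in all 4 libraries, and a count of 0 allows up to 3 reads, or 0.0958 to 0.129 RPKM (reads scaled by gene length and library total) depending on the library.

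Each of these genes carries a hairpin of the miR-26 family on its own strand, MIR26B in CTDSP1, MIR26A2 in CTDSP2 and MIR26A1 in CTDSPL. Their mature 5p arms (RefSeq, GRCh38.p14) are shown because they tie the family together by 1 seed, bases 2 to 8, which is in capitals.
hsa-miR-26a-5p: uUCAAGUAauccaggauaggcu
hsa-miR-26b-5p: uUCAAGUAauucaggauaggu
Both arms share the seed UCAAGUA, and the arm of miR-26a is the same from MIR26A1 and MIR26A2. The 3 hairpin genes had 0 reads in every library. These were not small-RNA libraries, so they do not measure the mature miRNAs.

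Proteins with a CTD interaction domain bind the phosphorylated repeats. RPRD1A, which brings the phosphatase RPAP2 to the CTD, had 448 and 681 reads in WT against 506 and 457 in R1810A, giving a log2 fold change of 0.13 (SE 0.12), and its relative RPRD1B stood at -0.09 (SE 0.15). PCF11, a termination factor, stood at 0.06 (SE 0.14), and SCAF8, an anti-terminator, at -0.10 (SE 0.13). SCAF4, the partner of SCAF8 in preventing early polyadenylation, had 52 and 103 reads in WT against 74 and 83 in R1810A. In CPM that was 22.8 and 34.3 against 35.5 and 39.9. WT replicate 1 stood low, and WT replicate 2 nearly met R1810A replicate 1. The log2 fold change was 0.38 (SE 0.22, edgeR adjusted p = 0.679), with 0.14 without WT replicate 1 and 0.72 without WT replicate 2.

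NELF holds the polymerase in the promoter-proximal pause. NELFA, the subunit that contacts the polymerase, had 107 and 172 reads in WT against 147 and 122 in R1810A, or 46.9 and 57.3 CPM against 70.5 and 58.7 CPM. The nearest libraries of the groups differed by less than those within either group, and the log2 fold change was 0.30 (SE 0.17, edgeR adjusted p = 0.672). It was 0.17 without WT replicate 1, 0.46 without WT replicate 2 and 0.16 without R1810A replicate 1. NELFB stood at 0.18 (SE 0.11), NELFCD at 0.05 (SE 0.12) and NELFE, the RNA-binding subunit, at -0.08 (SE 0.13).

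The PAF1 complex travels with the polymerase and supports histone modification in the gene body. CTR9, its scaffold, had 89 and 88 reads in WT against 95 and 87 in R1810A, or 39.0 and 29.3 CPM against 45.6 and 41.9 CPM. Both R1810A libraries lay above WT, and the gap to WT replicate 1 was smaller than the spread within WT. The log2 fold change was 0.37 (SE 0.19, edgeR adjusted p = 0.655), with 0.58 without WT replicate 1 and 0.16 without WT replicate 2. In GENCODE v29 an annotated CTR9 exon overlaps 142 bases of SNORD97, a C/D snoRNA on the opposite strand. SNORD97 had 11 and 24 reads in WT against 102 and 80 in R1810A, more in R1810A replicate 1 than the 95 reads of CTR9, so its reads were not all inside the CTR9 count. The part of any shared reads in the CTR9 value was not tested.

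None of the other tested subunits passed the test. PAF1 stood at a log2 fold change of 0.06 (SE 0.15), CDC73, known as the tumour suppressor parafibromin, at 0.23 (SE 0.13), and RTF1, which promotes ubiquitination of histone H2B, at -0.04 (SE 0.11). LEO1 had 2 and 4 reads in WT against 4 and 2 in R1810A and did not enter the test. Its mean of 0.310 RPKM over the 4 libraries compares with 17.1 for PAF1, a 55.2-fold difference in level per length. The 12 reads of LEO1 have an exact 95% Poisson interval of 6.20 to 21.0, for counting error only. Of its 36-base words 3.14% occur in another gene.

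The super elongation complex joins P-TEFb to the scaffolds AFF1 or AFF4 and to an ELL protein. AFF4 had 489 and 576 reads in WT against 457 and 507 in R1810A, or 203 ± 15.9 CPM against 232 ± 17.5 CPM (SD, n = 2). The groups did not overlap, but WT replicate 1 at 214 CPM and R1810A replicate 1 at 219 CPM nearly met, and the log2 fold change was 0.19 (SE 0.12, edgeR adjusted p = 0.690). It was 0.11 without either WT replicate 2 or R1810A replicate 2. AFF1 stood at 0.15 (SE 0.21). ELL2, an elongation factor induced in plasma cells, had 0 reads in all 4 libraries, which allows up to 0.0766 to 0.103 RPKM. Its relative ELL, outside the 38, had 90 and 123 reads in WT against 85 and 84 in R1810A (log2 fold change 0.01, SE 0.17).

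**Figure D2:**
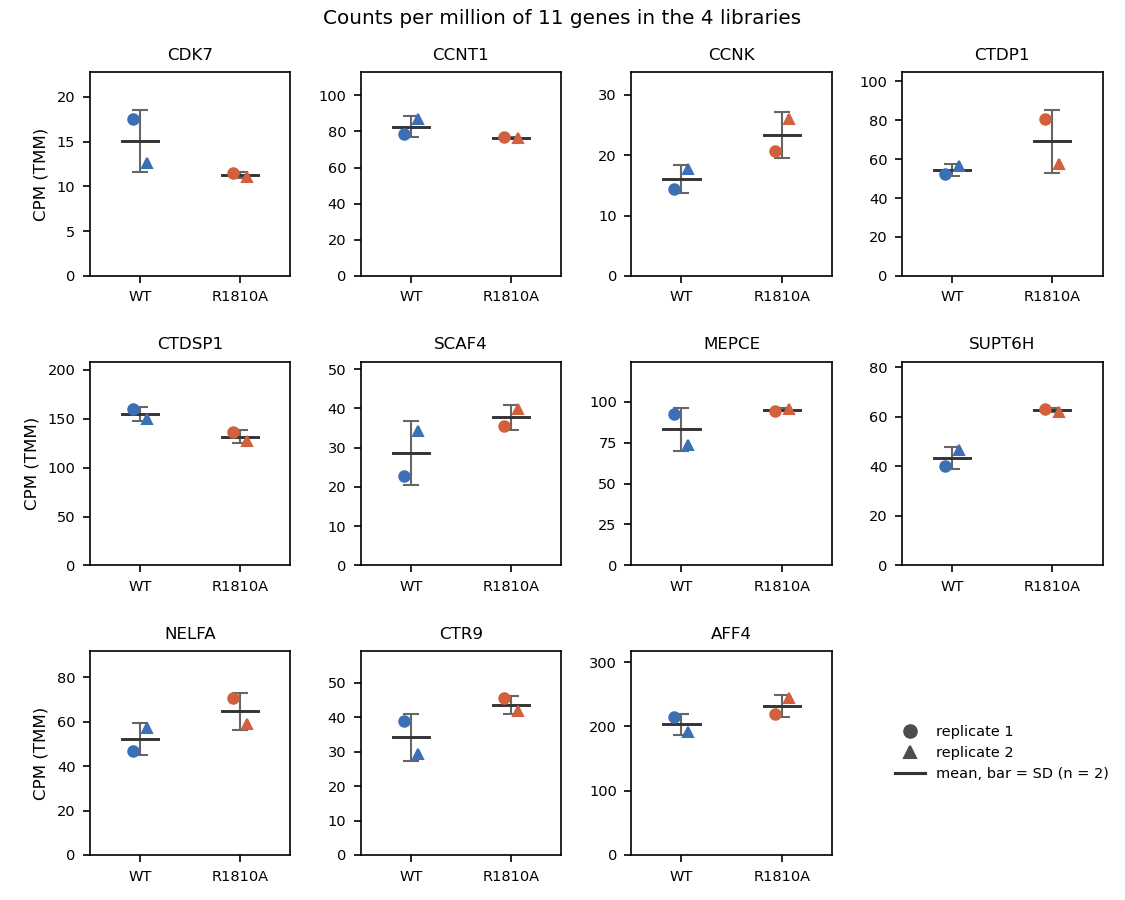
CPM with TMM scaling in each library for 11 genes, with group means (bars), SD (whiskers, n = 2) and replicates by symbol; each axis starts at 0. The SUPT6H libraries separate most clearly, at 40.3 and 46.6 in WT against 63.3 and 62.1 in R1810A, while in CTDP1 and SCAF4 1 library stands apart from the other 3.

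Levels within the machinery were compared in RPKM, which the authors made from the count, their gene length and the total reads. Means over the 4 libraries were above 10 RPKM for 19 of the 38 genes, from 1 to 10 for 16 and under 1 for 3. The highest were SSU72 at 37.1 ± 4.16 RPKM, SUPT5H at 32.3 ± 1.54 and NELFB at 31.8 ± 1.55 (SD over 4 libraries of both groups). SUPT5H and NELFB differed by less than their spread. The lowest of the tested genes was AFF1 at 1.97 ± 0.377 RPKM, 18.9-fold under SSU72.

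Subunits of 1 complex did not always stand at 1 level. DSIF was even, with SUPT4H1 at 27.6 ± 4.30 RPKM beside SUPT5H. SUPT6H, whose protein is not part of DSIF, reached 4.78 ± 0.818. Within NELF the range went from 5.23 ± 0.740 for NELFA to NELFB, a 6.08-fold difference. In the CDK-activating kinase CCNH stood at 11.4 ± 1.18 RPKM, 3.80-fold above CDK7. CCNK at 3.86 ± 0.776 RPKM lay below both kinases it serves, 4.19-fold below CDK12 at 16.2 ± 0.722 RPKM. These orders rest on the deposited gene lengths, 1489 to 11297 bases, whose transcript choice is not given in the sources used here. SUPT4H1 and CCNK also share 82.2% and 56.6% of their 36-base words in GENCODE v29 with other genes, so their levels are uncertain. For both, the annotated exons are longer than the deposited gene length, so these shares may not hold for the counted models.

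**Figure D3:**
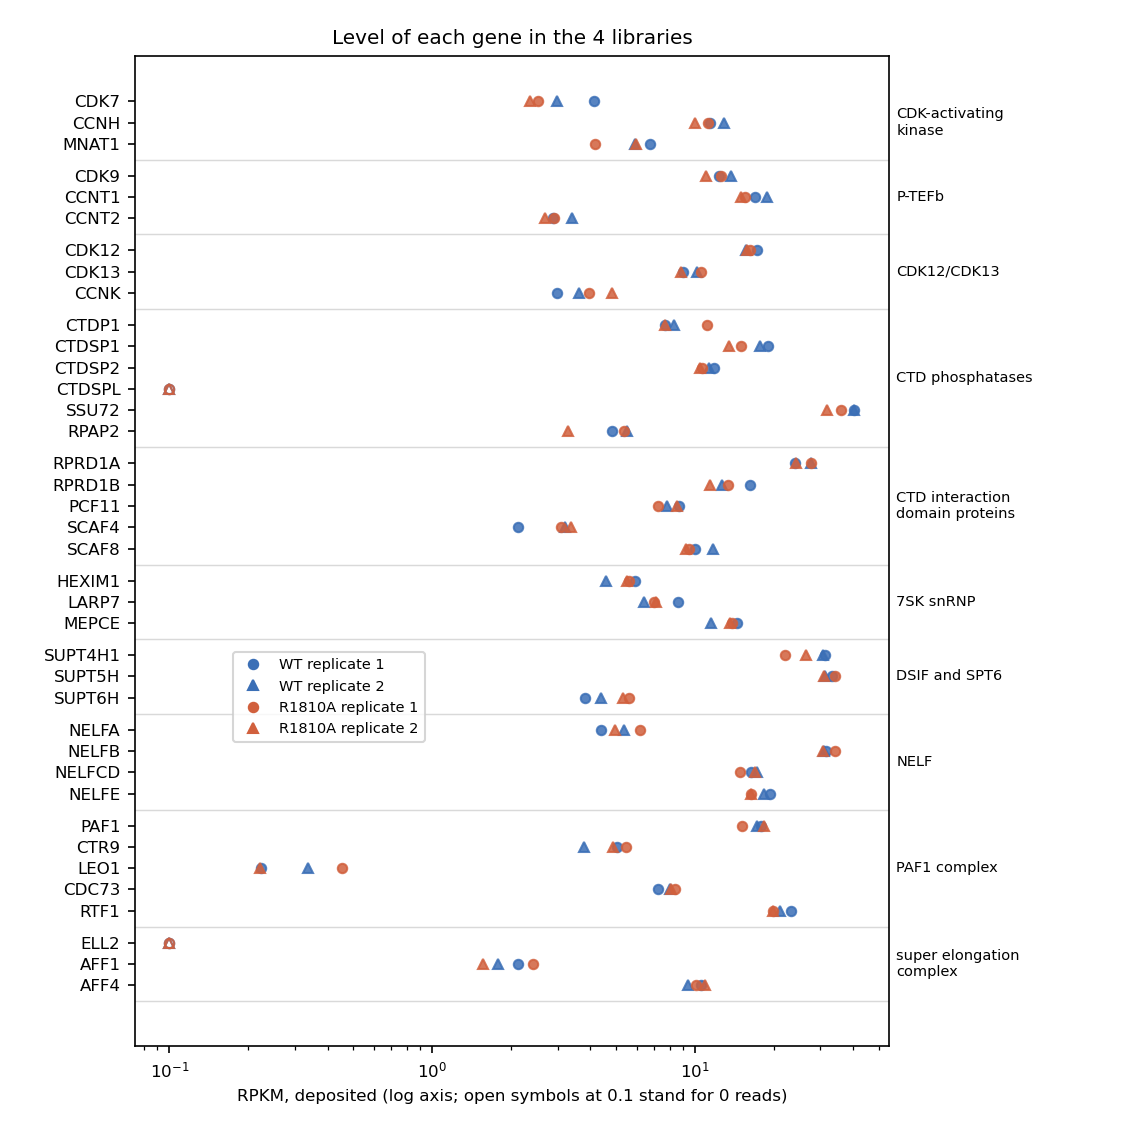
Deposited RPKM (log axis) of each of the 38 genes in the 4 libraries, WT in blue and R1810A in red, grouped by complex; open symbols at 0.1 stand for 0 reads. CTDSPL and ELL2 lie at 0, LEO1 under 1, and SSU72, SUPT5H and NELFB at the top.

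RPKM values of single genes were not tested between the groups. The share of the deposited total reads that fell in counted genes was 56.8% and 55.4% in WT and 52.7% and 50.4% in R1810A, and RPKM is scaled by those total reads. As a share of all gene counts the 38 genes held 0.367% (exact Clopper-Pearson interval 0.360 to 0.375%) and 0.372% (0.365 to 0.379%) in WT. In R1810A they held 0.383% (0.374 to 0.391%) and 0.380% (0.371 to 0.388%). The difference of 0.0116 percentage points had no overlap between groups, with an exact two-sided permutation p of 0.33, the smallest that 2 against 2 libraries allow. As a share of the total reads it was -0.0106 percentage points, so the direction depends on the denominator.

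Ratios within a library need no scaling, and 6 pairs of related genes were compared this way. CDK12 stood above CDK13 in all 4 libraries, at 1.91 and 1.53 times in WT and 1.53 and 1.79 times in R1810A. CCNT1 stood above CCNT2 at 5.89 and 5.51 times in WT and 5.32 and 5.54 times in R1810A. AFF1 stood at 0.201 and 0.189 of AFF4 in WT against 0.240 and 0.144 in R1810A. In each of these pairs the groups overlapped.

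Groups did not overlap in 2 pairs. SCAF4 to SCAF8 rested at 0.214 and 0.273 in WT against 0.326 and 0.366 in R1810A, a log2 difference of 0.52, with WT replicate 1 lowest. CTDSP1 to CTDSP2 rested at 1.60 and 1.56 in WT against 1.41 and 1.29 in R1810A, a log2 difference of -0.22. The exact two-sided permutation p was 0.33 for both, the smallest possible, and 1.0 after Benjamini-Hochberg adjustment over the 6 pairs. RPRD1A stood above RPRD1B in all 4 libraries with overlapping groups.

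**Figure D4:**
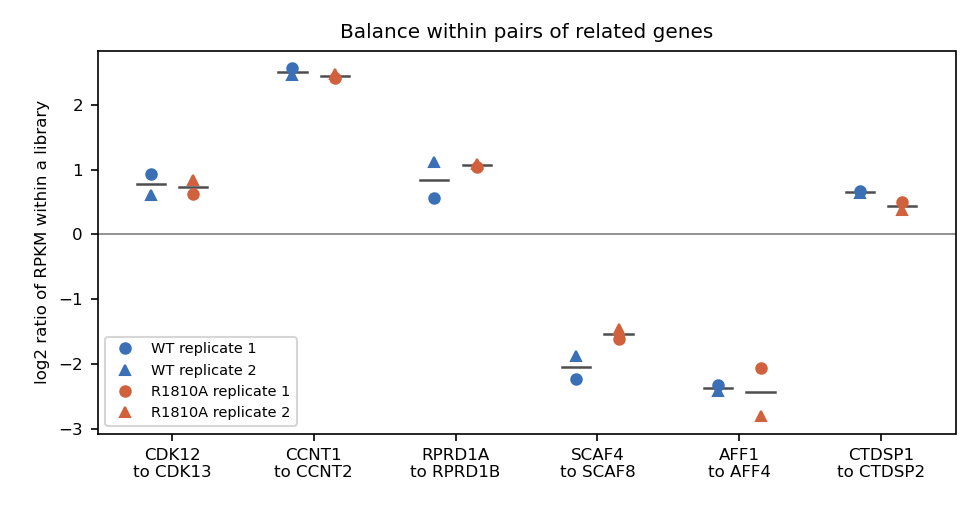
Log2 ratio of RPKM within each library for 6 pairs of related genes, with group means as short lines and replicates by symbol. Groups separate only for SCAF4 to SCAF8 and CTDSP1 to CTDSP2, by 0.52 and -0.22 on the log2 scale.

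Among 47 other genes of the pathway, 43 were tested. Of these, 0 passed the adjusted threshold with edgeR, and 2 were higher and 0 lower at an unadjusted p under 0.05, which is 4.65% against 4.94% of all genes for the higher ones. MED13L, a subunit of the Mediator kinase module, was among the higher ones. It averaged 224 ± 17.8 CPM in WT against 278 ± 26.4 CPM in R1810A (SD, n = 2), with a log2 fold change of 0.31 (SE 0.12, edgeR adjusted p = 0.523), and its groups did not overlap. The median log2 fold change of the 43 was 0.01.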

How the data were processed

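The 4 files hold, per the file headers, the authors' raw read counts per Ensembl gene, an RPKM value, a gene length and a total read number. The submitters' processing notes name Bowtie and hg19. The counting program, annotation, strand setting and handling of multiply matching reads were not given in the sources used here. Within a relative tolerance of 0.0001, the deposited RPKM equalled the count over length and total reads. It was used for levels between genes, for ratios within a library and for the overlap of groups under total-read scaling. What the deposited total reads count is not stated.

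The test used edgeR 4.0.16 under R 4.3.3, with filterByExpr and TMM (glmQLFit, glmQLFTest, group as the only term) over 10674 genes, with Benjamini-Hochberg adjustment over all of them. The SE is the absolute log2 fold change divided by the square root of F, and intervals are 95% from the moderated degrees of freedom. DESeq2 1.42.0, limma-voom 3.58.1 and other settings, 13 alternatives in all, were run, and fits were tested on simulated data. Shared 36-base words and exon overlaps come from GENCODE v29 on GRCh38, not the build used for counting, and the read length is not given in the sources used here. Intervals on counts cover counting error only.

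The genes, complexes and lists were chosen with earlier results of these data known. Genes given in full are those with an unadjusted p under 0.05, the smallest p of each complex, or no overlap between groups with a fold of at least 1.25. CCDC85C, SDF2, SNORD97 and the miR-26 genes were looked up after the overlaps were seen. GTF2H5 of the further list was not analysed here. The values of 1 other gene of that list are not reported here.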

Additional observations from a re-analysis of the deposited data

How the results depend on the processing

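No gene of the 38 passed an adjusted p under 0.05 under any of the 13 alternatives, and all 11 genes given in full kept the sign of their log2 fold change in each alternative that tested them. Scaling by the deposited total reads moved 6 of them by over 1.5 times: CCNT1 to -0.23, CTDP1 to 0.22, CTDSP1 to -0.36, MEPCE to 0.08, NELFA to 0.18 and AFF4 to 0.07. The strict filter left out CDK7. The number at an unadjusted p under 0.05 moved more: with a library left out it was 2 to 4 higher (4 without either WT library, 2 without either R1810A library) and 0 to 1 lower (CTDSP1, without WT replicate 2). Scaling by the deposited total reads gave 3 lower (CTDSP1, SSU72 and SUPT4H1), and upper-quartile scaling gave 1 lower (CTDSP1). SUPT6H was among the higher genes in all of them. The median log2 fold change of the 35 genes was 0.055, 0.0325 with upper-quartile scaling and 0.0296 to 0.0752 with a library left out. With the deposited total reads it was -0.0682, where the median of all genes was -0.13. The difference in share of counts, 0.0116 percentage points, was 0.0095 to 0.0138 with a library left out and -0.0106 as a share of total reads, in which the counted share differs between the groups.

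With the replicate number as a block, 1 gene was higher and 0 lower at an unadjusted p under 0.05, as without it, the median was 0.05 and SUPT6H stood at 0.53 (edgeR adjusted p = 0.273). Over all genes the block raised the calls from 37 higher and 1 lower to 73 and 4. The deviations of same-numbered libraries correlated at -0.0443 over genes. That shows no common deviation by number, but it cannot tell whether same-numbered libraries were handled together. Over all genes the calls ran from 2 higher and 0 lower without WT replicate 2 to 113 and 40 without WT replicate 1, where 1 library is assumed to vary like the other group. CDK7 and CCNK, with the fewest reads of the genes tested here, had the widest intervals.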

Other observations

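Some genes of the wider pathway that share much of their sequence with other genes had almost no reads. This did not hold for all such genes. SUPT4H1, with 82.2% of its 36-base words shared, had 132 to 247 reads. The 7SK RNA gene, with 83.1% shared, had 79 to 107. Whether sharing lowers a count was not tested. CDK11B, a kinase linked to transcription and splicing, had 0 reads in all 4 libraries and its near-copy CDK11A had 4 and 15 in WT and 4 and 12 in R1810A. Of the 36-base words of CDK11B 53.8% occur in another gene, almost all of them in CDK11A. GTF2H2, a subunit of the TFIIH core that has copies nearby, also had 0 reads, with 71.4% of its words in other genes. Among the 38 genes described above, 32 share at most 10% of their words with other genes. CTDSPL (0.17%), LEO1 (3.14%) and ELL2 (8.34%), the 3 with the fewest reads, are among these 32. The 6 above that share are CCNH, CCNK, PCF11, SCAF8, HEXIM1 and SUPT4H1.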
